A study of Mus musculus with 12 samples.

Results

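The genes described here are 27 genes of cholesterol handling, out of 55487 genes in the deposited table, measured in kidneys of mice with X-linked Alport syndrome. They were taken by symbol from a list of the pathway: 7 of the mevalonate arm, 11 of the squalene and sterol arm, 4 of sterol sensing, 2 of uptake and transport, and 3 of efflux and storage. Each symbol was found once, and all 27 passed the filter on low counts, which 17890 genes passed.

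Kidney RNA came from male mice on the B6 background, aged 30 weeks, with X-linked Alport syndrome, an inherited disease of the type IV collagen network of the glomerular filter; the sample titles name Col4a5, the collagen gene concerned. One group of 6 libraries came from mice on a control diet and the other group of 6 from mice on a diet with fisetin, a plant flavonol, at 500 ppm. Both diets share the disease, the strain, the sex and the age, and no healthy mouse was used here. The genotype field reads HET, a term for 2 different alleles, although the animals are described as males. The labels give 2 batches, each with 3 libraries of each diet, and do not say what a batch stands for. Nothing in them says that each library is a separate animal, so p-values measure the spread between these libraries. Total counts were 16310214 to 24451821 per library.

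Cells make cholesterol from acetyl-CoA. The mevalonate arm builds isoprene units, and the squalene and sterol arm joins them, closes the rings and trims them into cholesterol. Transcription of both arms is driven by SREBP2, the product of Srebf2. When sterols are plentiful, INSIG proteins hold SREBP2 and its escort SCAP in the endoplasmic reticulum; when sterols are scarce, SREBP2 is cut free and enters the nucleus. Oxysterols act the other way through the LXR receptors, which raise the exporters ABCA1 and ABCG1 and the ligase MYLIP, which marks lipoprotein receptors for breakdown. In the kidney, lipid build-up in podocytes and tubules is a known feature of several glomerular diseases.

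The promoters of 5 genes are shown because the values below turn on them: Hmgcs1, Idi1 and Cyp51, the synthesis genes with the highest level or the widest spread, Insig1, which moved apart from them, and Abca1, which moved against them. Each line gives the 250 bases before the RefSeq start (GRCm38.p6), 5′ to 3′ on the gene's strand. Capitals mark matches to 4 motifs on either strand: TCACNCCAC, the core of a sterol regulatory element; CCAAT, the NF-Y box, which reads ATTGG on the other strand; CACGTG, an E-box; and GGGCGG, a GC box, which reads CCGCCC on the other strand. Where matches overlap, the capitals run together.
Hmgcs1, chr13:119690101-119690350, plus strand: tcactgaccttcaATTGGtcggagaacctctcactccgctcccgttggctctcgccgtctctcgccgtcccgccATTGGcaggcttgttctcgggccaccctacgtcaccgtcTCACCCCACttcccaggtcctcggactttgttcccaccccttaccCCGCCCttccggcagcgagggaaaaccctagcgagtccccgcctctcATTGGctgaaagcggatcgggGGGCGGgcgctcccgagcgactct
Idi1, chr13:8885356-8885605, plus strand: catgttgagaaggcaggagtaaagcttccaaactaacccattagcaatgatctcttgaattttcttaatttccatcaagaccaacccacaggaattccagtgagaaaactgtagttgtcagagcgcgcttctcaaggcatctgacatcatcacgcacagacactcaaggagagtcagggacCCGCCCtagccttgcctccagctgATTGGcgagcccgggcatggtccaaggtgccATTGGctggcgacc
Cyp51, chr5:4104698-4104947, minus strand: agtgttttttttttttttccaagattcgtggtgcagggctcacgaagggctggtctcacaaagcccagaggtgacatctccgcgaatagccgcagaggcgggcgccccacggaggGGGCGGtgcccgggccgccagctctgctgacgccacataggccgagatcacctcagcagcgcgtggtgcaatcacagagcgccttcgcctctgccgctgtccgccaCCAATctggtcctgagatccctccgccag
Insig1, chr5:28071162-28071411, plus strand: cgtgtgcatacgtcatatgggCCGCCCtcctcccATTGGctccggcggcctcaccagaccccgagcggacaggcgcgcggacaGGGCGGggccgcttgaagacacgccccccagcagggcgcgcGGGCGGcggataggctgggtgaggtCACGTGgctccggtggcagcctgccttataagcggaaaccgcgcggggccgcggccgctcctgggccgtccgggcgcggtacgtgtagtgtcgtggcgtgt
Abca1, chr4:53159896-53160145, minus strand: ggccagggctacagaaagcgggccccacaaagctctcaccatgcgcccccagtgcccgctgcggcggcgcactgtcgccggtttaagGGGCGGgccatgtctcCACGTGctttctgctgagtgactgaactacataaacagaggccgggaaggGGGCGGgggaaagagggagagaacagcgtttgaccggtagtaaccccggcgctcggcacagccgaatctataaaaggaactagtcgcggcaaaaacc
The Hmgcs1 window held the sterol regulatory element core at position -137 from the start, NF-Y boxes on the reverse strand at -237, -176 and -45, and GC boxes at -92 and -24. Idi1 held NF-Y boxes at -45 and -14. Cyp51 held 1 at -29, Insig1 held an NF-Y box at -216 and an E-box at -101, and Abca1 held an E-box at -147 and no NF-Y box.

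RefSeq windows, from 250 bases before to 50 after a start, were matched for 22 of the 27 genes. An NF-Y box was found in 19 of the 22 (86.4%), against 41.1% of 27025 genes with a window of the same length. A GC box was found in 21 (95.5%, against 38.2%), an E-box in 6 (27.3%, against 8.09%) and the sterol regulatory element core in 1, Hmgcs1 (4.55%, against 1.44%). Only exact matches were counted. Near matches to a motif were not searched, so a window without a match may still hold a variant of it. The 3 matched genes with no NF-Y box were Acat2, Scap and Abca1. A match describes the letters of a window and is not a measured binding site. The 27025 genes were not limited to those that passed the filter on low counts, as all 27 members did. Shares among genes that passed were not computed, so whether the set differs from other expressed genes was not tested.

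Levels between genes were compared as deposited FPKM, which is scaled by gene length. Hmgcs1, the cytosolic HMG-CoA synthase, stood highest at 149 ± 22.5 FPKM with the control diet (mean ± SD, n = 6 libraries, as for all values below). Idi1, the isopentenyl diphosphate isomerase, followed at 49.6 ± 12.6, then Acat2, the cytosolic acetoacetyl-CoA thiolase, at 46.4 ± 3.65, Srebf2 at 40.2 ± 2.36 and Cyp51, the lanosterol demethylase, at 36.6 ± 9.85. Idi1 and Acat2, and likewise Srebf2 and Cyp51, differed by less than the larger SD of the pair, while Acat2 and Srebf2 differed by more than the SD of either. The lowest were Abcg1, a sterol exporter, at 8.44 ± 1.27, Mvk, mevalonate kinase, at 7.76 ± 0.856, and Lss, lanosterol synthase, at 6.36 ± 0.678. Abcg1 and Mvk did not differ beyond their spread. The mevalonate arm held both the highest gene and the gene next to the lowest.

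**Figure D1:**
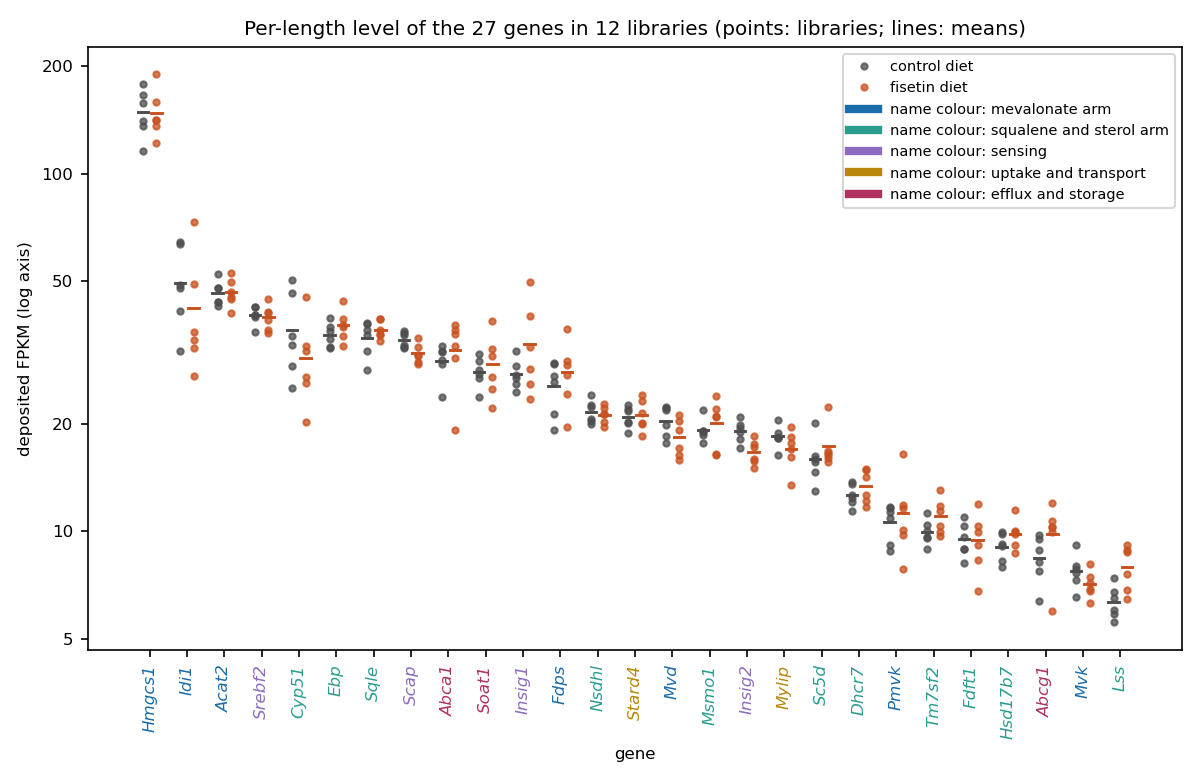
Deposited FPKM (log axis) of the 27 genes in each of 12 libraries, ordered by control mean, with points for libraries and lines for diet means. Hmgcs1 stands apart at the top, and within each gene the points of the 2 diets overlap.

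No gene of the 27 passed the diet comparison. In edgeR's quasi-likelihood test with batch in the model, 0 of the 27 had an adjusted p under 0.05, and 0 of all 17890 genes did (0% of genes). By unadjusted p under 0.05, 2 of the 27 were lower with fisetin, Mylip and Mvk, and 0 were higher. That is 7.4% of the set, against 6.34% of all genes lower and 8.23% higher, or 14.6% in either direction, so the set had about the background share of lower genes and no higher gene. DESeq2 also called 0 of the 27, with 0.855% of all genes called, and gave 1 of them an unadjusted p under 0.05 (15.7% of all genes). For 0 of the 27 genes did the 6 libraries of one diet all lie beyond those of the other (0.894% of all genes).

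The differences were small as well as uncalled. A negative log2 fold change was found for 16 of the 27 genes, against 49.8% of all genes, with a median of -0.01 against 8e-04 over all genes. The median size of the log2 fold change, regardless of sign, was 0.06 against 0.11 over all genes. The members also varied less between libraries, with a median SD of log2 CPM after batch and diet of 0.15 against 0.18. The comparison of sizes did not allow for that. The 95% interval of the fold included 1 for 25 of the 27 genes, and for 19 of the 27 it lay within 0.8 to 1.25. For those 19, larger changes were outside the interval.

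**Figure D2:**
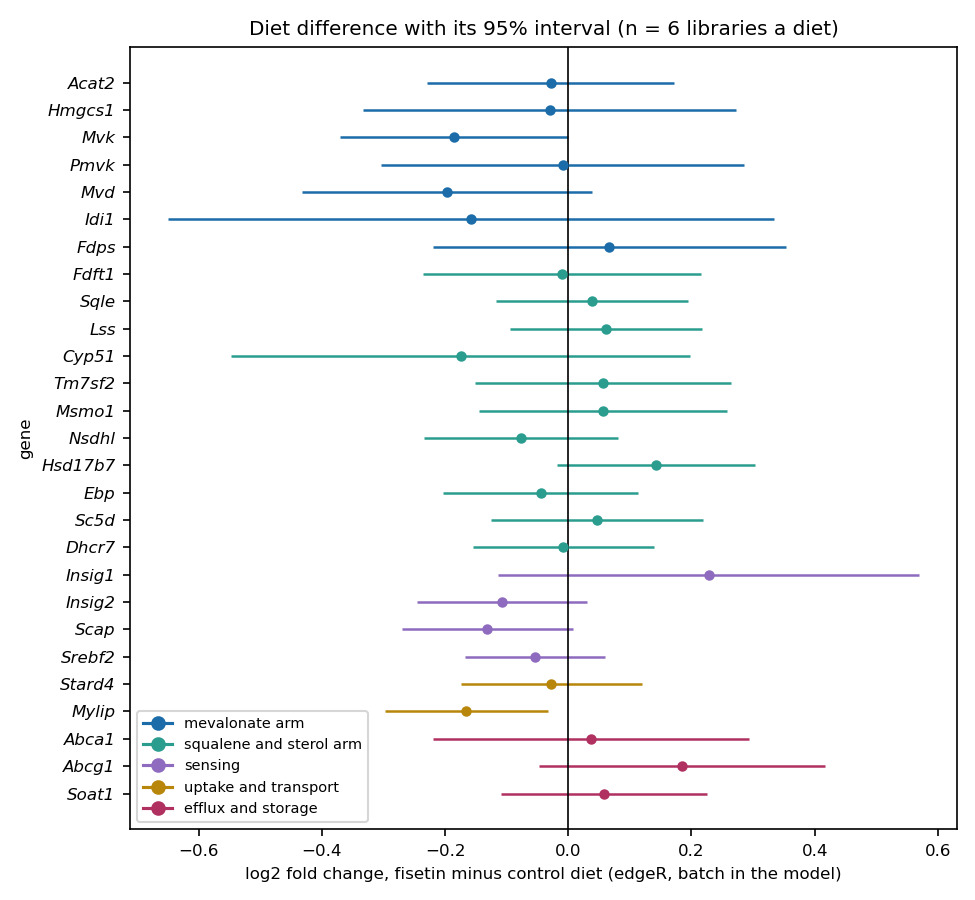
Log2 fold change of each gene, fisetin minus control diet (edgeR, batch in the model), with its 95% interval, n = 6 libraries a diet, coloured by role. Of the 27 intervals, 25 cross 0; those of Mylip and Mvk lie below it, and Idi1 and Cyp51 have the widest.

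In the mevalonate arm, 6 of 7 genes had a negative log2 fold change (median -0.03) and 0 passed the test. Values below are CPM (counts scaled by TMM to a common library size) and compare a gene only with itself. Hmgcs1 (ENSMUSG00000093930; GRCm38 chromosome 13, 119690379 to 119708260) ran from 323 CPM (median 415) to 536 with the control diet and from 336 (median 382) to 585 with fisetin. The ranges lay almost on top of each other, and the highest library of all 12 was fisetin 6. Its means were 428 ± 79.3 and 418 ± 91.3, a log2 fold change of -0.03 ± 0.14 (SE), or 0.979-fold (95% interval 0.794 to 1.21; edgeR adjusted p = 0.924).

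Mvk (ENSMUSG00000041939; chromosome 5, 114444269 to 114460591) ran from 8.14 CPM (median 9.55) to 11.6 in control and from 7.72 (median 8.61) to 9.21 in fisetin libraries. All 6 fisetin libraries lay below the control mean, although the groups overlapped. The log2 fold change was -0.19 ± 0.09, or 0.879-fold (95% interval 0.773 to 0.999; edgeR adjusted p = 0.341). Mvd, the mevalonate diphosphate decarboxylase (ENSMUSG00000006517; chromosome 8, 122433601 to 122443422), ran from 25.2 CPM (median 30.3) to 34.1 in control and from 21.9 (median 25.5) to 33.1 in fisetin libraries. Of the fisetin libraries, 5 lay below the control mean, and the ranges overlapped over most of their length. Its log2 fold change was -0.20 ± 0.11, or 0.873-fold (0.741 to 1.03; edgeR adjusted p = 0.392). Mvd was the 1 gene of the set called by limma-voom with quality weights, at -0.28 (adjusted p = 0.0427), a method that called 13.4% of all genes.

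Idi1 had the widest spread of the set, from 53.7 CPM in fisetin 1 to 154 in fisetin 6, a 2.87-fold range over the 12 libraries. The diet difference was -0.16 ± 0.22 on the log2 scale, and between -0.38 (without fisetin 6) and -0.07 (without fisetin 4) when 1 library was left out. Acat2 (-0.03), Pmvk, the phosphomevalonate kinase (-0.01), and Fdps, the farnesyl diphosphate synthase (0.07), lay close to 0 on the log2 scale. Pmvk had opposite signs in the 2 batches, -0.27 in batch 1 and 0.25 in batch 2 (edgeR interaction adjusted p = 1.00).

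In the squalene and sterol arm, 6 of 11 genes had a positive and 5 a negative log2 fold change (median 0.04), and 0 passed. Sqle, squalene epoxidase, a rate-controlling step of this arm (ENSMUSG00000022351; chromosome 15, 59315077 to 59331192), ran from 71.7 CPM (median 90.8) to 99.6 in control and from 84.0 (median 90.6) to 93.3 in fisetin libraries. The fisetin libraries all lay inside the control range. The log2 difference was 0.04 ± 0.07, or 1.03-fold (0.922 to 1.15; edgeR adjusted p = 0.799).

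Hsd17b7, a ketosteroid reductase of the sterol arm (ENSMUSG00000026675; chromosome 1, 169949535 to 169969241), had the smallest p of the arm. It ran from 31.0 CPM (median 34.5) to 39.3 in control and from 33.6 (median 38.3) to 42.5 in fisetin libraries. The groups overlapped, with 5 of 6 fisetin libraries above the control mean. The log2 fold change was 0.14 ± 0.07, or 1.10-fold (0.988 to 1.23; edgeR adjusted p = 0.374). By batch, the log2 fold change was 0.30 ± 0.08 in batch 1 and -0.01 ± 0.09 in batch 2. Hsd17b7 was the 1 gene of the 27 with an unadjusted p under 0.05 for the interaction of diet with batch (edgeR adjusted p = 1.00), against 2.1% of all genes.

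Of the other genes of this arm, Cyp51 had the most negative log2 fold change, -0.17 ± 0.17, which was -0.30 without fisetin 6 and -0.10 without control 6. Its libraries ran from 60.6 to 132 CPM in control and from 61.8 to 130 in fisetin. Nsdhl, a sterol dehydrogenase, was at -0.08, Ebp, a sterol isomerase, at -0.04, Fdft1, squalene synthase, at -0.01 and Dhcr7, the reductase of a last step, at -0.01 on the same scale. Lss was at 0.06, as were Tm7sf2, a sterol reductase, and Msmo1, a methylsterol oxidase, and Sc5d, a sterol desaturase, was at 0.05. For Lss the deposited scales differed: FPKM was 6.36 ± 0.678 in control and 7.95 ± 1.13 in fisetin libraries, while CPM was 25.5 ± 1.72 and 26.7 ± 3.49. On log2(TPM + 1) its difference was 0.29 (limma adjusted p = 0.656), against 0.06 in counts, and the cause was not tested.

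Among the sensing genes, 3 of 4 had a negative log2 fold change and 0 passed. Insig1, itself a target of SREBP2 (ENSMUSG00000045294; chromosome 5, 28071363 to 28078662), ran from 56.0 CPM (median 65.1) to 75.7 in control and from 55.2 (median 73.3) to 113 in fisetin libraries. The 2 highest libraries of all were fisetin 5 at 113 and fisetin 1 at 89.2, and the other 4 fisetin libraries lay between 55.2 and 73.7. Its log2 fold change, 0.23 ± 0.16, was the largest of the set, with a fold of 1.17 (0.924 to 1.49; edgeR adjusted p = 0.470). Without fisetin 5 it was 0.08, and without fisetin 5 and fisetin 6 it was 0.05.

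Insig2, the second INSIG gene (ENSMUSG00000003721; chromosome 1, 121304353 to 121332589), ran from 32.2 CPM (median 36.5) to 41.8 in control and from 32.0 (median 32.9) to 38.5 in fisetin libraries, which overlapped. This gave a log2 fold change of -0.11 ± 0.06, or 0.928-fold (0.844 to 1.02; edgeR adjusted p = 0.413). Scap (ENSMUSG00000032485; chromosome 9, 110333288 to 110384950) ran from 102 CPM (median 118) to 133 in control and from 98.8 (median 107.5) to 116 in fisetin libraries. All 6 fisetin libraries lay below the control mean, within an overlap of the groups. The log2 fold change of Scap was -0.13 ± 0.06, or 0.913-fold (0.829 to 1.01; edgeR adjusted p = 0.356). Srebf2 (ENSMUSG00000022463; chromosome 15, 82147181 to 82205379) was the steadiest gene of the set, from 143 CPM (median 164) to 166 in control and from 144 (median 153.5) to 168 in fisetin libraries. Both ranges nearly coincided, and the log2 fold change was -0.05 ± 0.05, or 0.963-fold (0.891 to 1.04; edgeR adjusted p = 0.603). Messenger levels of Srebf2 and Scap do not show how much SREBP2 protein was cut free.

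Of the uptake and transport genes, Mylip had the smallest p of all 27. Mylip (ENSMUSG00000038175; chromosome 13, 45389742 to 45412022) ran from 47.4 CPM (median 49.9) to 57.7 in control and from 40.0 (median 46.5) to 51.6 in fisetin libraries. The groups overlapped, with 5 of 6 fisetin libraries below the control mean and the lowest of all in fisetin 6. Its means were 51.4 ± 4.03 and 45.9 ± 4.08, a log2 fold change of -0.17 ± 0.06, or 0.892-fold (0.813 to 0.977; edgeR adjusted p = 0.303; DESeq2 adjusted p = 0.192). The sign was the same in both batches, -0.10 ± 0.08 in batch 1 and -0.22 ± 0.09 in batch 2. Stard4, a carrier of cholesterol between membranes, was at -0.03 ± 0.07.

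All 3 efflux and storage genes had a positive log2 fold change (median 0.06), and 0 passed. Abca1, the exporter that loads cholesterol onto apolipoprotein A-I (ENSMUSG00000015243; chromosome 4, 53030787 to 53159895), ran from 244 CPM (median 309) to 325 in control and from 199 (median 326) to 356 in fisetin libraries. The lowest library of all was fisetin 6, at 199 CPM, and the other 5 fisetin libraries lay between 304 and 356. Diet gave a log2 fold change of 0.04 ± 0.12, or 1.03-fold (0.859 to 1.23; edgeR adjusted p = 0.892). Abcg1 (ENSMUSG00000024030; chromosome 17, 31057675 to 31117988) ran from 27.8 CPM (median 32.3) to 36.5 in control and from 26.3 (median 36.9) to 42.6 in fisetin libraries. Fisetin 6 was again the lowest of all 12, while the other 5 fisetin libraries lay above the control mean. The log2 fold change was 0.18 ± 0.11, or 1.14-fold (0.967 to 1.33; edgeR adjusted p = 0.407). Soat1, which esterifies cholesterol for storage, was at 0.06 ± 0.08.

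**Figure D3:**
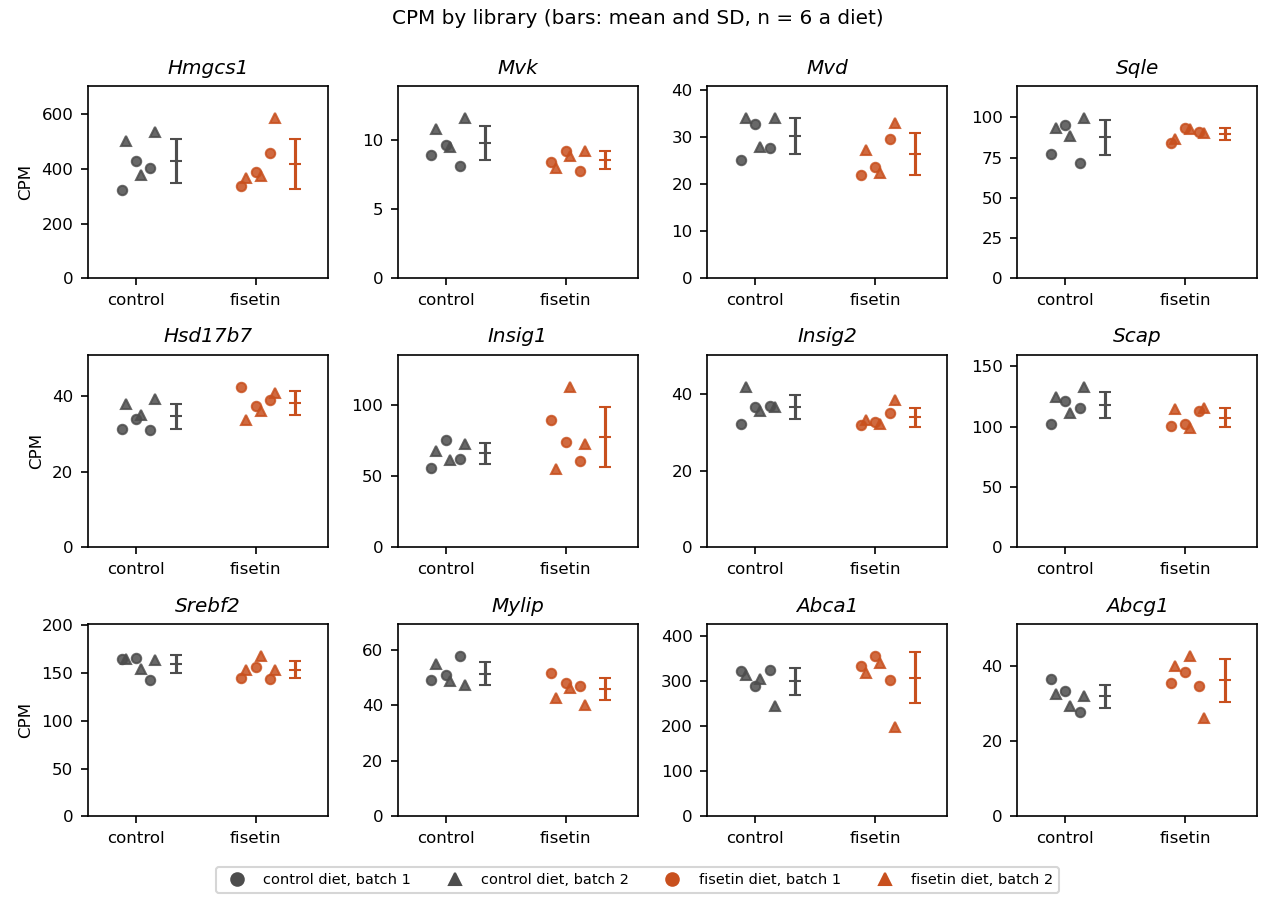
CPM of 12 genes in each library, by diet (colour) and batch (circles for batch 1, triangles for batch 2), with mean and SD of n = 6 libraries a diet. The diets overlap in every panel; fisetin 6 is the top point for Hmgcs1 and the bottom point for Mylip, Abca1 and Abcg1.

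The batch term gave 0 of the 27 genes with an adjusted p under 0.05 in edgeR (0% of all genes), and 3 with an unadjusted p under 0.05 (3.38% of all genes): Lss, Sc5d and Cyp51. Cyp51 had the largest, at 0.52 ± 0.17 (batch 2 minus batch 1, log2; edgeR adjusted p = 0.892). Of the 18 synthesis genes, 17 had a positive batch term, with Nsdhl at -0.02 as the exception. The median batch term was 0.13 for these 18 genes and 0.0014 over all genes. Synthesis genes varied together (median r of 0.42 over their pairs, with batch and diet removed), so these are not 18 separate observations. For 11 of the 27 genes, the diet difference had opposite signs in the 2 batches, among them Hmgcs1, Sqle and Abca1. The shares of all genes with a positive batch term, or with opposite signs by batch, were not computed.

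The spread between libraries was larger than the diet difference for most of the set, and it was not the same for all genes. The residual SD of log2 CPM, after batch and diet, was 0.43 for Idi1, 0.33 for Cyp51, 0.30 for Insig1 and 0.27 for Hmgcs1. Among all genes tested these lay at the 87.4, 77.5, 73.4 and 68.2 percentiles. Srebf2 was at 0.08, the 11.8 percentile. The 4 genes named first were the most variable of the set. Over all 27 genes the median residual SD was 0.15, below the 0.18 over all genes tested. The highest and lowest values of the set were counted by library, and the same count over all genes was not made. Fisetin 6 was the highest of 12 for 7 genes, Acat2, Hmgcs1, Idi1, Tm7sf2, Msmo1, Dhcr7 and Stard4, and the lowest for 4, Mylip, Abca1, Abcg1 and Soat1. Fisetin 5 was the highest for 8 genes, Pmvk, Fdps, Fdft1, Lss, Sc5d, Insig1, Srebf2 and Abcg1. Fisetin 3 was the lowest for 6 genes, fisetin 1 the lowest for 5 and control 6 the highest for 5. Fisetin 5 and fisetin 6 have the same diet and batch. Yet fisetin 6 stood high for the Hmgcs1 side of synthesis and fisetin 5 for Insig1 and Fdps.

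Those libraries also differed from each other in cell type markers. The mean log2 CPM of 10 macrophage markers was lowest in fisetin 6, at 4.85, and highest in fisetin 5, at 6.20. That of 10 proximal tubule markers was lowest in fisetin 5, at 8.86, and in fisetin 6 it was 10.04. Over the diets, all 10 macrophage markers had positive log2 fold changes, with summed levels of 575 to 1046 CPM in control and 523 to 1357 in fisetin libraries. For the proximal tubule, 9 of 10 had negative ones, with sums of 12080 to 24060 and 8110 to 21540 CPM. In edgeR, 0 of these 20 markers passed. All 8 T and B cell markers had positive log2 fold changes (median 0.89), with summed levels of 18.6 to 73.8 CPM in control and 22.6 to 119.5 in fisetin libraries, highest in fisetin 5, and 0 of them passed. Podocyte and endothelial marker means, with 4 of 5 markers negative in each, were lowest in fisetin 5 and highest in fisetin 6. Adipocyte markers spread widely within both diets, with sums of 12.85 to 263.5 CPM in control and 7.34 to 242.6 in fisetin libraries. All 5 tested adipocyte markers had positive log2 fold changes and 0 passed. Their mean log2 CPM was 5.04 in fisetin 5 and 1.995 in fisetin 6, lowest in fisetin 4 and highest in control 3. Markers of the adrenal cortex, a gland that makes steroids and lies beside the kidney, summed to at most 3.95 CPM, and Cyp11b2, the aldosterone synthase, was at 0 in every library. Alb, the hepatocyte albumin gene, was at 737 CPM in fisetin 5 and at 1.58 to 5.48 in the other 11 libraries. It was 1 of 2 tested genes in a list of 5 hepatocyte markers. The other tested one, Serpina1a, showed no such peak, with 49.8 to 66.25 CPM in control and 37.6 to 63.7 in fisetin libraries. Summed over all 5 markers, levels were 55.3 to 71.8 CPM in control and 40.7 to 851 in fisetin libraries. That top sum exceeds the highest Alb and Serpina1a values together. Untested markers of the list therefore also contributed to it, but they were not read by library. In whole-kidney RNA, fewer cells of a type and less RNA per cell cannot be told apart.

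The levels of several genes followed these markers across the 12 libraries. Over 54 relations (27 genes with each of 2 marker means, log2 CPM, permutation tests adjusted together), 10 genes correlated with the macrophage mean at an adjusted p under 0.05: Abca1, Abcg1 and Soat1 positively, and Acat2, Hmgcs1, Mvd, Idi1, Cyp51, Insig2 and Scap negatively. With the proximal tubule mean 11 did, of which 9 were positive. The 2 marker means ran against each other in fisetin 5 and fisetin 6, and not only there. Fisetin 1 had 6.02 for macrophages and 9.05 for the proximal tubule, and control 4 had 4.99 and 10.13. The 2 counts, and the results with either mean taken into account, are therefore not independent. A correlation between the 2 means was not computed. The share of all genes that follow these means was not computed. Whether the set follows them more than other genes do was therefore not tested. Hmgcs1 had r = -0.82 with the macrophage mean (permutation adjusted p = 0.00535, rho = -0.81), r = -0.84 without the 2 farthest libraries, and r = -0.74 and -0.82 within batches 1 and 2. Soat1 had r = 0.89 (permutation adjusted p = 0.00108, rho = 0.83), and r = 0.93 and 0.88 within the batches. Insig1 had r = 0.42 (permutation adjusted p = 0.306) and Srebf2 r = 0.08 (permutation adjusted p = 0.896). Mylip, with r = 0.02 (permutation adjusted p = 0.956), showed no such relation at this number of libraries. With the macrophage mean added to the diet model, 0 of the 27 genes passed and 10 of them took the opposite sign, among them Hmgcs1 (0.16), Idi1 (0.14) and Cyp51 (0.05). The log2 fold change of Mvd was -0.04 in that model, that of Scap -0.06 and that of Abcg1 0.02. Those of Mylip (-0.18, edgeR adjusted p = 0.385), Mvk (-0.18, edgeR adjusted p = 0.587) and Hsd17b7 (0.19, edgeR adjusted p = 0.420) stayed near their values without it.

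Genes of the set also varied with each other. Of 8 pairs tested over 12 libraries, 4 passed by r and 3 by rho after adjustment. Hmgcs1 and Idi1, both of the mevalonate arm, had r = 0.97 (permutation p = 1e-05, the smallest that 100000 resamples can give; adjusted p = 8e-05; rho = 0.93). This held without the 2 libraries farthest in Hmgcs1 (0.93), within batch 1 (0.90), within batch 2 (0.99), and with batch, diet and both marker means removed (0.91). Hmgcs1 and Stard4 had r = 0.83 (permutation adjusted p = 0.00347, rho = 0.71), which was 0.62 without the 2 farthest libraries, 0.29 within batch 1 and 0.98 within batch 2. With batch and diet removed it was 0.83, and with the marker means removed too it was 0.71. Each batch has 6 libraries, too few to show whether the relation was absent in batch 1, and a difference between batches was not tested.

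Hmgcs1 and Abca1, one gene for making and one for exporting cholesterol, were opposed, with r = -0.79 (permutation adjusted p = 0.00347, rho = -0.70). Without fisetin 6 and control 6, the 2 libraries farthest in Hmgcs1, r was -0.42, so the relation rests in large part on those libraries. It was -0.52 within batch 1, -0.83 within batch 2, and -0.46 with the marker means removed as well as batch and diet. Abca1 and Abcg1, both LXR targets, had r = 0.65 (permutation adjusted p = 0.0399) and rho = 0.64 (permutation adjusted p = 0.0543). That value was 0.47 without the 2 farthest libraries, 0.32 and 0.77 within the batches, and 0.19 with the marker means removed. Hmgcs1 with Sqle (r = 0.52, permutation adjusted p = 0.109), with Srebf2 (r = 0.09, permutation adjusted p = 0.888) and Abca1 with Mylip (r = 0.53, permutation adjusted p = 0.109; rho = 0.27) did not pass. With batch and diet removed, the last pair had r = 0.62 (permutation adjusted p = 0.046), but r was -0.06 without the 2 farthest libraries, 0.04 within batch 1 and 0.53 within batch 2, so it rests on those libraries.

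Hmgcs1 and Insig1, both targets of SREBP2, showed no relation in the libraries as they are (r = 0.01, permutation adjusted p = 0.966; -0.12 and 0.00 within batches 1 and 2). With the macrophage and proximal tubule means removed as well as batch and diet, r was 0.86. That setting was added after the data were seen, and this value has no test.

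**Figure D4:**
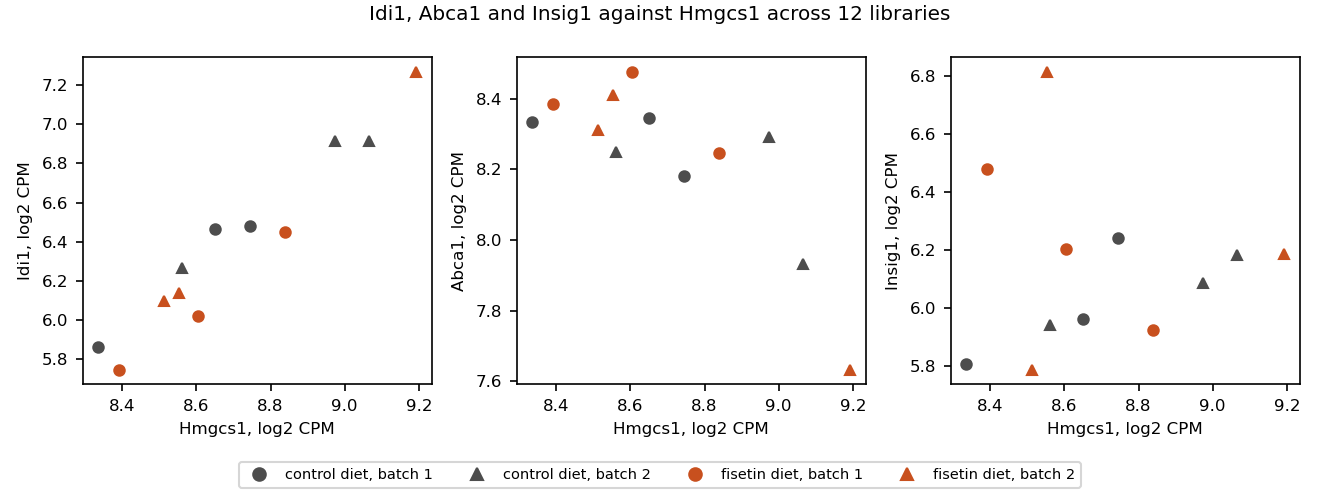
Log2 CPM of Idi1, Abca1 and Insig1 against Hmgcs1 in 12 libraries, by diet (colour) and batch (shape). Idi1 follows a line (r = 0.97); fisetin 6, at the right end, is the lowest point for Abca1 (r = -0.79); Insig1 shows no line (r = 0.01), with fisetin 5 at the top.

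Over all pairs, described without a test and with batch and diet removed, the median r was 0.42 among the 153 pairs of the 18 synthesis genes, and 126 of the 153 were positive. The median over all pairs of genes tested was 0.00. Between synthesis and efflux or storage genes the median was -0.33, with 9 of 54 pairs positive. Among the 3 efflux and storage genes it was 0.74. Removing the 2 marker means gave 0.60 within synthesis, -0.38 between synthesis and efflux, and 0.19 within efflux and storage. The median over all pairs of genes was not computed in that setting, so these values have no background. With 12 libraries and so many terms removed, few free values remain, and large r come easily.

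Hmgcs1 and Insig1 had different partners by this measure. Hmgcs1 had an r of at least 0.7 with 9 of the 26 other genes, Acat2, Mvd, Idi1, Cyp51, Nsdhl, Ebp, Insig2, Scap and Stard4. Insig1 reached it with 3 different ones, Fdft1, Lss and Msmo1. With the marker means removed, the counts were 13 of 26 for Hmgcs1 and 11 of 26 for Insig1, which then included each other. All these pairs share the same 12 libraries and their depth, and the same counts were not made for other genes.

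**Figure D5:**
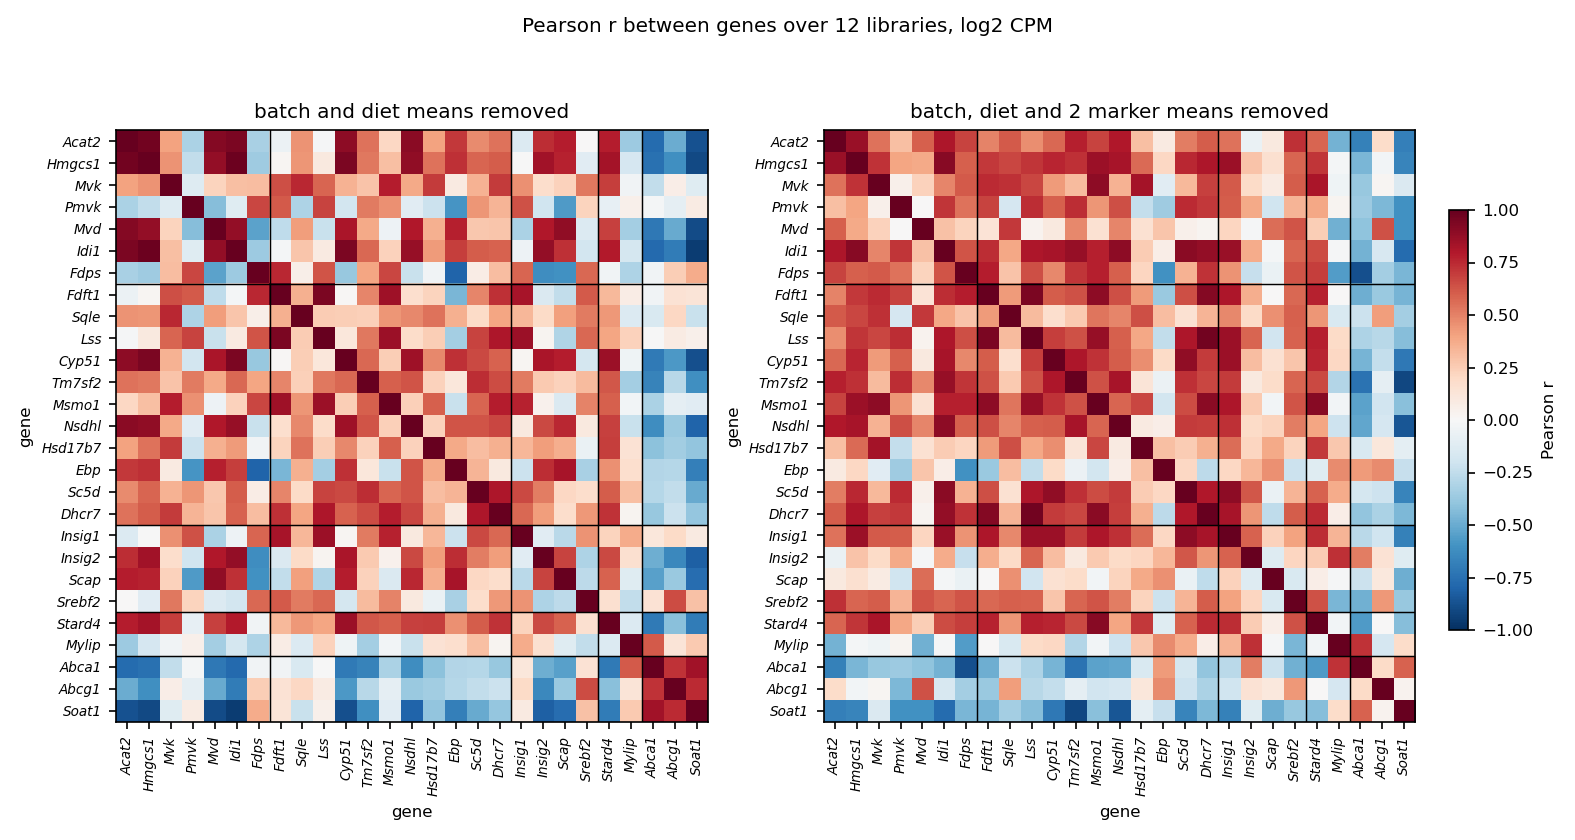
Pearson r between the 27 genes over 12 libraries (log2 CPM, red positive, blue negative), with batch and diet means removed (left) and with the macrophage and proximal tubule marker means removed too (right); lines part the roles. Removing the marker means raised the median r among synthesis genes from 0.42 to 0.60 and lowered that among efflux and storage genes from 0.74 to 0.19. Neither change was tested, and no median over all genes was computed for the right map.

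Further genes of the pathway were read from fixed lists, and 0 of them passed in edgeR. Of 8 genes of the isoprenoid branch, 6 had negative log2 fold changes, with the smallest p for Pdss2, a subunit of the enzyme that makes the coenzyme Q side chain, at -0.23 ± 0.11 (edgeR adjusted p = 0.350). Of 8 other sensing and degradation genes, 5 were negative. Srebf1, whose product favours fatty acid genes, was at -0.27 ± 0.10 (edgeR adjusted p = 0.299), with all 6 fisetin libraries below the control mean, and Rnf145, a sterol-responsive ubiquitin ligase, was at -0.15 ± 0.06 (edgeR adjusted p = 0.324).

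Of 13 other genes of uptake and lysosomal egress, 7 were positive. Npc1, the transporter that lets cholesterol out of lysosomes, ran from 49.3 CPM (median 50.2) to 54.2 in control and from 50.6 (median 63.4) to 67.9 in fisetin libraries. All but 1 of the fisetin libraries lay above the control mean, and the groups overlapped at their edge. Its log2 fold change was 0.27 ± 0.07, or 1.21-fold (1.09 to 1.33; edgeR adjusted p = 0.252), and DESeq2 called it (adjusted p = 0.0437). Npc2, its soluble partner, was at 0.19 ± 0.08 (edgeR adjusted p = 0.330). With the macrophage mean in the model, Npc1 was at 0.17 and Npc2 at 0.07.

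Of 10 other efflux and LXR genes, 7 were negative. Nr1h3, which encodes LXR alpha, ran from 23.3 CPM (median 27.8) to 33.6 in control and from 19.6 (median 22.8) to 27.2 in fisetin libraries, all 6 below the control mean. Its log2 fold change was -0.29 ± 0.09 (edgeR adjusted p = 0.276). Of 6 oxysterol genes, 4 were negative. Cyp39a1, an oxysterol hydroxylase, ran from 7.44 to 8.54 CPM in control and from 8.71 to 10.7 in fisetin libraries, with no overlap (0.23 ± 0.07; edgeR adjusted p = 0.276).

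In the related list of 10 lipogenesis genes, 5 were positive and 5 negative. Fads2, a fatty acid desaturase, ran from 146 CPM (median 162) to 184.5 in control and from 117 (median 132) to 142 in fisetin libraries, with no overlap. It was at -0.33 ± 0.06, or 0.797-fold (0.724 to 0.877; edgeR adjusted p = 0.179), and DESeq2 called it lower (adjusted p = 9.79e-04). Scd2, another desaturase, was at -0.27 ± 0.08 (edgeR adjusted p = 0.276) and Fads1 at -0.16 ± 0.06 (edgeR adjusted p = 0.303). All 6 fisetin libraries lay below the control mean for both.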

How the data were processed

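Kidney messenger RNA was measured in 12 libraries, made with the KAPA mRNA HyperPrep kit per the labels' protocols. Tools named in the submitters' processing notes are STAR, fastp, DESeq2 and featureCounts, on GRCm38 (mm10), without versions. Every library has 3 deposited columns: estimated counts, FPKM and TPM. The deposited estimated counts carry no depth scaling; to a tolerance of 1e-06, 13.91% of the values above 0 were fractional, and all were rounded. The deposited TPM and FPKM values were scaled for length and depth by the authors. Diet came from the titles and batch from the batch field; libraries are numbered within a diet in accession order, which pairs nothing.

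Genes passing filterByExpr (minimum count 10) were scaled with TMM and tested in R 4.3.3 with edgeR 4.0.16 (robust glmQLFit and glmQLFTest, two-sided, terms for batch and diet), with Benjamini-Hochberg adjustment over all 17890 genes and a threshold of 0.05. DESeq2 1.42.0, limma-voom with quality weights (limma 3.58.1), limma on log2(TPM + 1) and log2(TPM + 0.1), other scalings, no filter, no batch term, each batch alone, marker covariates and leaving out each library were alternatives. CPM are TMM-scaled and log2 CPM have a prior count of 2. Correlations were tested by two-sided permutation with 100000 resamples. The fitting steps were tested on simulated counts.

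The 8 genes with the smallest p and 7 set genes are given in full, the other members by level and fold change; of further lists, those with an unadjusted p under 0.05 (at most 4) or otherwise the one with the smallest p. Members and lists were chosen with earlier results of these data known. Gene coordinates come from GENCODE M21 (GRCm38) and promoters from RefSeq (GRCm38.p6). Some genes of the pathway are not reported here.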

Additional observations from a re-analysis of the deposited data

Results flagged for a closer look

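In each of the 54 groups of 6 libraries (27 genes, 2 diets), the most distant library was compared with the group's range; chance marks about 1 group in 20. In 5 groups, all of the fisetin diet, 1 library stood apart from the other 5 on the CPM scale. Fisetin 6 did so for 4 genes, which varied together. With batch and diet removed, Idi1 had r = 0.94 with Cyp51, 0.79 with Stard4 and -0.78 with Abca1. These 4 are therefore not separate observations, and the rate of 1 in 20 does not apply to them as a count. Idi1, the isopentenyl diphosphate isomerase, was at 154.1 CPM there and at 53.7 to 87.3 in the other fisetin libraries. Cyp51, the lanosterol demethylase, was at 130.2 against 61.8 to 79.4, and Stard4, a cholesterol carrier, at 101.2 against 81.2 to 87.8. Abca1, the cholesterol exporter, was at 198.6 against 304 to 356. Fisetin 3 stood apart for Ebp, a sterol isomerase, at 53.85 CPM against 42.5 to 45.7.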

How the results depend on the processing

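The diet comparison was recomputed under 25 alternatives. No gene of the 27 was called in 24 of them; limma-voom with quality weights called 1, Mvd. Of 675 fold changes of single genes under these, 674 stayed on the same side of the threshold. An exact permutation of diet within batches was also run on single genes; its smallest p is 0.005, so 1 gene could not pass over the 27 and it says nothing about stability. Mvk, Mvd, Insig1, Insig2, Scap, Mylip and Abcg1 had the same sign in all 25. Counts at an unadjusted p under 0.05 were 2 lower and 0 higher as reported. Lower counts were 0 with total count scaling, 1 by DESeq2, 7 by limma-voom with quality weights, 1 with no low count filter, 1 with no batch term, 0 in batch 1 alone, 0 in batch 2 alone, 0 on log2(TPM + 1) and 0 on log2(TPM + 0.1). They were 1 with the macrophage and 1 with the proximal tubule covariate. Higher counts were 1 with total count scaling, 2 by limma-voom with quality weights, 1 in batch 1 alone, 1 on log2(TPM + 1), 1 on log2(TPM + 0.1), 1 with the macrophage and 2 with the proximal tubule covariate. Leaving out each library in turn gave 1 to 3 lower and 0 to 2 higher. Leaving out fisetin 5 and fisetin 6 together, chosen after the data were seen, gave 0 lower and 1 higher. The cause of these shifts was not tested.

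Over all genes edgeR called 0 as reported, 83 without fisetin 6, 1 without fisetin 4, 16 without fisetin 5 and fisetin 6, and 0 without any other 1 library. The median log2 fold change of all genes shifted from 8e-04 to at most 0.08, on log2(TPM + 0.1). Of the 27 genes, DESeq2 called 0 for the interaction and 0 for the batch term. Of 40 pair correlations under alternatives, 5 lay outside the 95% interval (Fisher z) of the reported r. For the 4 pairs that passed, no value changed sign; 6 values did, all of Hmgcs1 with Insig1, Hmgcs1 with Srebf2 or Abca1 with Mylip. No paired analysis was possible because the labels give the libraries no replicate numbers.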
